A study of Drosophila melanogaster with 2 samples.

Results

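The piRNA pathway protects the fly germ line from transposons, and 10 of its genes are described here: papi, piwi, aub, AGO3, vas, tej, spn-E, krimp, tud and zuc. They were chosen by name, out of 13968 annotated protein-coding genes, with the strong peak at papi already known, so their peaks are given as a description and no test was run on them. The data are chromatin immunoprecipitations with sequencing from whole adult male Drosophila melanogaster of a transgenic line in which CG5204 (kmg) carries eGFP at its C terminus, pulled down with an antibody to GFP. There is 1 group with 2 biological replicates of that line. The sources used here give neither the promoter that drives the fusion protein, nor the age of the flies, nor read totals, so depth is unknown. Control libraries were not analysed here. In whole flies, binding in fewer cells and weaker binding in each cell cannot be told apart.

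Small RNAs of this pathway, the piRNAs, guide the Argonaute proteins Piwi, Aubergine (aub) and AGO3 to transposon RNA. Long precursor RNAs are cut at the outer membrane of mitochondria, where the endonuclease Zucchini (zuc) and the Tudor and KH domain protein Papi sit, and Papi is known from silkworm cells as a partner of the trimming of piRNA 3' ends. Aubergine and AGO3 cut transposon RNA and precursor RNA in turn in the nuage, a granule beside the germ cell nucleus, with the help of the helicases Vasa (vas) and Spindle-E (spn-E) and of the Tudor domain proteins Tejas (tej), Krimper (krimp) and Tudor (tud). Kmg itself, with its zinc fingers, is known as a repressor in spermatocytes.

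Of the 10 genes, papi alone had a peak in the list of peaks that passed the irreproducible discovery rate (IDR), a measure of agreement between replicates. Its signal, the value of the authors' peak caller on a scale that the sources used here do not give, was 705 in the pooled replicates, against a median of 73.0 over the 2868 IDR peaks, which makes it 9.66-fold that median. The peak was the 21st strongest of the 2868 and the 13th of the 1550 whose summit lay within 500 bp of a protein-coding transcription start site (TSS). The next stronger IDR peak had 719 and the next weaker 702. By replicate, the papi region had a signal of 358 in replicate 1, at rank 18 of 30000 listed regions, and of 349.9 in replicate 2, at rank 25. These average 354 ± 5.80 (SD, n = 2), and the ratio of replicate 1 to replicate 2 was 1.02, where the 99 of the 100 strongest IDR peaks that both replicates list ranged from 0.739 to 1.36 with a median of 0.943. The deposited false discovery rate was 0.000579, the lowest value of the list, which papi shares with 863 other peaks.

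The peak lies at chr2L:2221630-2221973 on build dm6, inside papi (FBgn0031401, chr2L:2220748-2225544, plus strand), and its summit falls in an intron. The gene has 4 annotated transcripts, each with its own TSS. All 4 share 1 coding sequence of 1728 bases before the stop codon. The first 3 TSSs have noncoding first exons, whereas the first exon from the fourth TSS holds the start codon. The summit was 1066 bp downstream of the first TSS, 275 bp upstream of the second, 843 bp upstream of the third and 1386 bp upstream of the fourth. It thus lay 863 bp past the end of the first exon of the transcript that starts at the first TSS, in sequence that is intronic for that transcript and upstream of the other 3. The start codon lay 1515 bp downstream of the summit. No other gene overlaps papi, and no TSS of another gene was within 500 bp of the summit. Summits of the replicates were 19 bp apart, at 292 bp upstream of the second TSS in replicate 1 and 273 bp upstream in replicate 2.

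**Figure D1:**
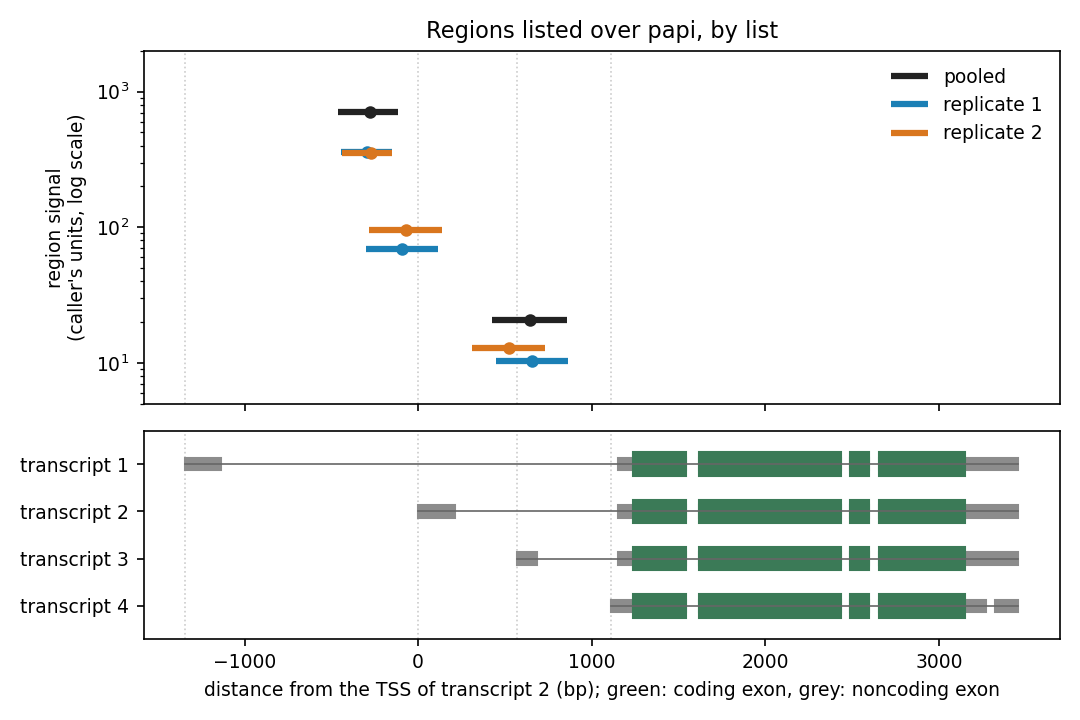
Regions listed over papi in the pooled, replicate 1 and replicate 2 lists (upper panel: bars span each region, dots mark summits, y axis the signal on a log scale) above the 4 annotated transcripts (lower panel), with distance in bp from the TSS of the second transcript on the x axis and dotted lines at each TSS. The strongest region of every list, with 705, 358 and 349.9, sits between the first exon of transcript 1 and the TSS of transcript 2, and the regions near the third TSS have signals of 20.8 or less.

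Both replicates listed another region between this summit and the second TSS. Its summit was 92 bp upstream of that TSS with a signal of 69.6 in replicate 1 and 71 bp upstream with 95.3 in replicate 2. These lay 200 and 202 bp from the main summits, and the regions overlapped the main ones by 151 and 131 bp, so some reads may count in both. The pooled list has no separate entry there. A region at 101 to 300 bp from the summit in both replicates was found at 12 of the 100 strongest IDR peaks and at 455 of all 2868 (15.9%). Near the third TSS the lists held weak regions, with 20.8 in the pooled list, 10.2 in replicate 1 and 12.8 in replicate 2, close to the medians of the whole lists (20.8, 11.5 and 12.7), which include background. The first TSS had no region within 500 bp in any list. A strongest peak nearer to a TSS other than the gene's 5' end, as at papi, was found at 354 of 830 genes (42.7%). These 830 are the genes that have an IDR promoter peak and several TSSs. For 278 of the 830 (33.5%) the strongest peak lay over 500 bp from the 5' end.

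The sequence under the papi summit was rich in A and T. In the 201 bp centred on the summit the GC content was 29.9%, against a mean of 34.1% (SD 5.45) for the 100 strongest IDR summits, 35.7% (SD 7.02) for all IDR summits and 41.5% (SD 7.68) for the 5' ends of protein-coding genes. Shown are 300 bases of the papi peak, 101 bases at 2 other small RNA genes with an IDR promoter peak (Nxf3 and gw, described below), and 101 bases at the strongest AGO3 region, which is the listed region of the other 9 genes nearest to the IDR list. All are on the plus strand of the Release 6 reference genome (dm6) and stay clear of annotated UTRs, and capitals mark matches to the words searched. The papi stretch is chr2L:2221664-2221963, Nxf3 is chr3L:13964990-13965090, gw is chr4:660084-660184 and AGO3 is chr3L:23610751-23610851.
papi: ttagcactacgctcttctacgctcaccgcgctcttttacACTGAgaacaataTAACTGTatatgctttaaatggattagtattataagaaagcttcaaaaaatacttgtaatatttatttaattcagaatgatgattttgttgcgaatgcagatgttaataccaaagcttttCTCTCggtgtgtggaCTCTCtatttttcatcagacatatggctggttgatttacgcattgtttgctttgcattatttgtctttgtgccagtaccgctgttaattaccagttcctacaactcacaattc
Nxf3: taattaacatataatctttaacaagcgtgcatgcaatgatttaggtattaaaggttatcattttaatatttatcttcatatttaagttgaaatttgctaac
gw: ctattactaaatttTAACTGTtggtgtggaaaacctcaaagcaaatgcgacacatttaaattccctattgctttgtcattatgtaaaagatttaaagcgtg
AGO3: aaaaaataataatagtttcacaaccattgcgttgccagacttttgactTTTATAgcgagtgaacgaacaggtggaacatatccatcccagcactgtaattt

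Short words were looked for on either strand, up to 100 bp from each summit: the Dref element (DRE) TATCGATA, the BEAF-32 core CGATA, which the DRE contains, the M1BP core GGTCACA, the core of Ohler Motif 7 CATCNCTA, the E-box CAGCTG, the GAGA word GAGAG, the TATA word TATAAA, the initiator TCAGT, E2F words TTTCCCGC and TTTGGCGC, and the word TAACNGT of Ovo, a factor of the female germ line. Of these 10 motifs the papi window held 2. GAGAG, on the minus strand, started 22 and 37 bp downstream of the summit, and it is found in 22.1% of IDR summit windows and 22.5% of windows at gene 5' ends. TAACNGT started 98 bp upstream, and it is found in 9.24% and 8.66%. The initiator word in the printed stretch lies outside the window. The gw window also held TAACNGT, 36 bp to the left of its summit as printed. The Nxf3 window held the E-box, the TATA word and the initiator, all beyond the 101 bases shown. TAACNGT was absent from the windows at the IDR promoter peaks of Nxf3, mino, tapas and r2d2, all described below. The mino window held the BEAF-32 core and the r2d2 window the initiator. At tapas the stronger peak held the BEAF-32 core, the GAGA word and the initiator, and the weaker peak the initiator. At the strongest pooled regions of the other genes, AGO3 had the TATA word, spn-E had the BEAF-32 core, the GAGA word and the TATA word, krimp had the BEAF-32 core, the TATA word and the initiator, and aub had none of the 10 motifs. Among IDR summit windows the BEAF-32 core is found in 28.5%, the TATA word in 36.9%, the initiator in 33.1% and the E-box in 8.3%. A match marks letters, not a bound factor.

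Across the other 9 genes, no IDR summit lay over the gene or within 2 kb upstream. The count of 1 of 10 genes with an IDR promoter peak, meaning a summit within 500 bp of a TSS, stands beside 12.5% of all protein-coding genes, and the count of 1 of 10 with an IDR summit over the gene or 2 kb upstream beside 18.6%. Both counts are near these shares. In the pooled list of 30000 regions, which includes background, 5 of the 10 had a region over the gene or 2 kb upstream (53.3% of all protein-coding genes) and 4 of the 10 had one within 500 bp of a TSS (31.7%). The replicate 1 list had a region over 7 of the 10 spans (58%) and the replicate 2 list over 8 (56.9%). Without papi, the strongest pooled region of a gene had a signal of 24.1 to 41.1 over the 4 other genes with one, below the weakest IDR peak at 42.5.

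**Figure D2:**
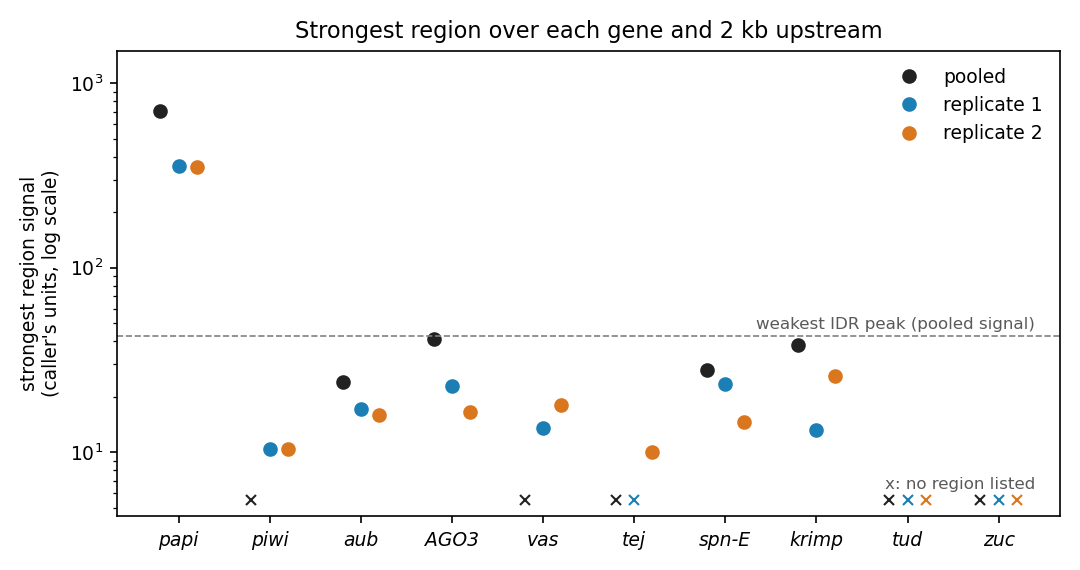
Signal of the strongest region over each gene and 2 kb upstream in the pooled, replicate 1 and replicate 2 lists (log scale), with a cross where a list holds no region and a dashed line at 42.5, the pooled signal of the weakest IDR peak. Among pooled values only papi lies above the line, at 705, and tud and zuc have no region in any list. The line does not apply to replicate signals, which run lower than pooled ones.

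The genes for the 3 Argonaute proteins had weak regions only. For piwi (chr2L:10982205-10987420, minus strand), which encodes the nuclear Argonaute that silences transposons at the chromatin, the pooled list held no region. Each replicate had 1, with a signal of 10.4 in both and summits 287 and 319 bp upstream of the piwi TSS, nearer to the divergent gene CG12253 than to piwi. For aub (chr2L:10997819-11001476, minus strand), which lies upstream of piwi on the same strand, the pooled list held 4 regions. The strongest had a signal of 24.1 in an aub intron. A promoter region of 22.9 lay 495 bp upstream of the 5' end of aub. Another, of 16.4, lay 470 bp downstream of the 5' end and 102 bp past an internal TSS. The summit at 495 bp upstream was nearer to lectin-33A, whose TSS lay 101 bp from it, than to aub. The aub region at 495 bp upstream was matched in replicate 2 with 16.0 and not in replicate 1, whose regions had 17.2 within the gene and 8.96 upstream. The nearest IDR summit to both genes was the same one. It lay at the 5' end of RpL9, a ribosomal protein gene, 2677 bp from the nearest aub TSS and 16733 bp from that of piwi, with a signal of 81.7.

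AGO3 (chr3L:23554593-23689640, plus strand), the partner of Aubergine in reciprocal cutting, is 135048 bp long and held 20 pooled regions, all in introns. Over the gene and 2 kb upstream, 137048 bp, that is 1.46 regions per 10 kb, against an average of 2.33 over the whole arm 3L. The density in the part of the arm around AGO3 was not measured. Its strongest region, at chr3L:23610586-23611015 and 54876 bp downstream of the nearest TSS, had a pooled signal of 41.1 at rank 3003. Both replicates listed it, with a summit within 100 bp. It had 22.9 in replicate 1, where it was the strongest AGO3 region, and 15.7 in replicate 2, where the strongest had 16.4 at 37634 bp downstream of the TSS. At the AGO3 promoter only replicate 2 listed regions, with 11.0 and 10.2. The nearest IDR summit was 215274 bp away from an AGO3 TSS.

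Among the nuage helicases, vas had no pooled region and spn-E had 3. At vas (chr2L:15061656-15074311, plus strand), which shares its TSS with solo, replicate 1 listed 5 regions with signals up to 13.5 and replicate 2 listed 2 with up to 18.1. None of the vas regions of one replicate had its summit within 100 bp of one of the other. At spn-E (chr3R:15837419-15844415, plus strand) the pooled signals were 27.7 at the TSS of Pbp45, a gene within spn-E, 25.9 in the 3' UTR and 19.1 at 253 bp upstream of the spn-E TSS. That upstream summit lay 49 bp from the TSS of ND-23, a mitochondrial complex I gene that diverges from spn-E with 302 bp between the 5' ends. Replicate 1 had 23.5 at the Pbp45 TSS and 20.8 upstream of spn-E, where replicate 2 listed nothing.

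Of krimp, tej and tud, which encode Tudor domain proteins of the nuage, krimp alone had a pooled region. At krimp (chr2R:16238103-16240722, minus strand), which encodes a protein that holds unloaded AGO3 in the nuage, a region at chr2R:16240740-16241169 was listed in all 3 lists of 30000. Its summit lay 233 bp upstream of the krimp TSS, in the 3' UTR of CG15708, and its pooled signal of 38.2 ranked 3356, outside the 2868 of the IDR list. The krimp region had 13.2 at rank 10461 in replicate 1 and 25.8 at rank 2690 in replicate 2, so it stood among the strongest 2868 of replicate 2 alone. In those lists of 2868 the krimp and papi promoters made 2 of 10 for replicate 2 (13.2% of protein-coding genes) and papi alone 1 of 10 for replicate 1 (14.2%). At tej (chr2R:14300103-14302353, minus strand) the only region was in replicate 2, with 10.1 at 182 bp upstream of the TSS. The span of tud (chr2R:21183322-21192913, plus strand), the gene that gave the domain its name, held no region in any list over 11592 bp.

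The span of zuc (chr2L:11988735-11989882, minus strand), the endonuclease gene, also held none over 3148 bp, although its 5' end is 54 bp from that of the divergent gene dgt2. The nearest IDR summits to tud and zuc were 16940 and 13217 bp from their TSSs. Since the lists end at signals of 16.0 in the pooled list, 8.61 in replicate 1 and 9.71 in replicate 2, weaker signal at tud or zuc would not be listed.

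**Figure D3:**
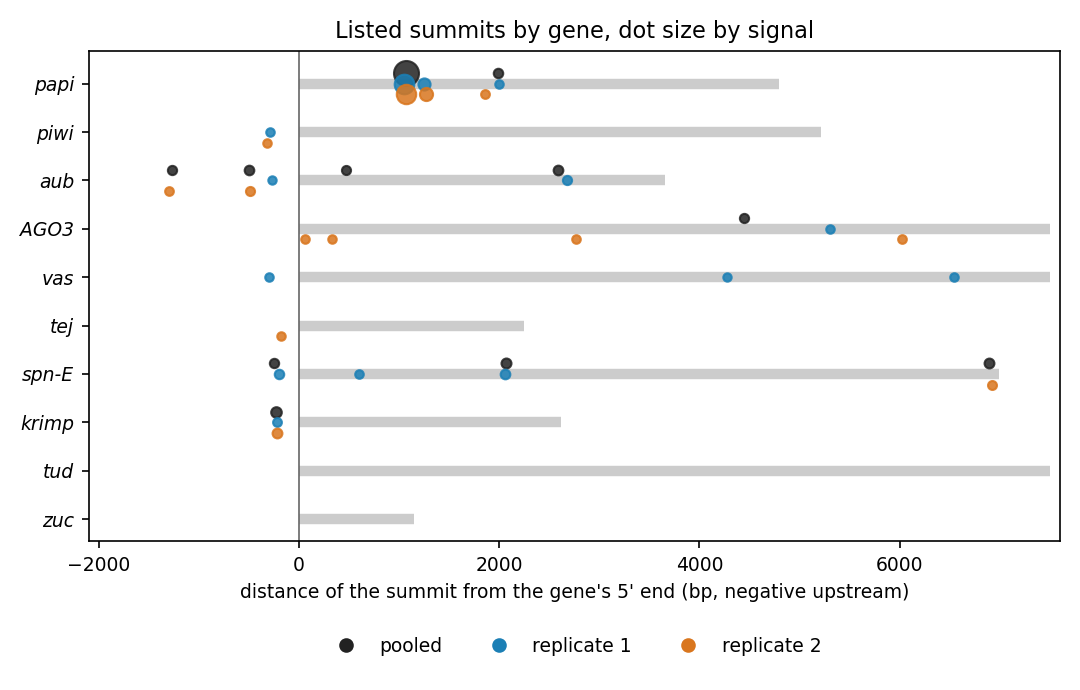
Summits listed for each of the 10 genes by distance from the 5' end of the gene (x axis, bp, negative upstream, cut at 7500 bp), with grey bars for the genes and dot size growing with signal in the pooled, replicate 1 and replicate 2 lists. The large dots belong to papi at 1066 bp downstream of its 5' end in the pooled list, the krimp dots of all 3 lists fall 219 to 233 bp upstream, and tud and zuc have none.

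Other genes of the pathway were taken from a list of 43 symbols, of which 42 were found in the annotation, 4 of them through a synonym, and all 10 genes above are among the 42. IDR promoter peaks lay at 4 of the 42 (9.52%), which are papi, mino, Nxf3 and tapas, beside the 12.5% of all protein-coding genes. An IDR summit over the gene or 2 kb upstream was found at 6 of the 42 (14.3%, beside 18.6%), which adds wde and SoYb. With every region of the pooled list, 12 of the 42 had one at a promoter (28.6%, beside 31.7%). The strongest pooled signal over a gene had a median of 33.5 over the 16 list genes with a region and of 29.4 over all 7438 such protein-coding genes.

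The papi signal was above that of each of the other 5 pathway genes with an IDR summit in their spans. The peak of tapas, which encodes another Tudor domain protein of the nuage, had 71.3 at an internal TSS, 103 bp upstream, with 29.4 in replicate 2 and no region within 100 bp of it in replicate 1. The other tapas peak had 44.3 at 436 bp downstream of the first TSS. At mino, an acyltransferase gene needed for piRNA production, the peak had 70.3 in the 5' UTR, 183 bp downstream of the TSS. The summit was 6 bp from the TSS of lncRNA:CR45566, which starts within mino on the opposite strand. In replicate 2 the mino region had 48.9, whereas in replicate 1 the stronger region had 41.2 with its summit 15 bp downstream of the TSS and the one matching the peak had 9.37. Nxf3, which exports piRNA precursors from the nucleus, had 54.5 at 163 bp upstream with 21.3 in replicate 1 and 33.5 in replicate 2. Its TSS is also a TSS of ssp2, so the summit lay 163 bp upstream of both genes. At wde, whose product is a cofactor of a histone H3K9 methyltransferase, the IDR summit lay in an intron 563 bp downstream of its TSS. That is just outside the 500 bp promoter window. The peak had 238, with 129 and 111 in the replicates, and the replicate 2 summit lay inside the window, 472 bp downstream. Replicate 1 also listed a weaker wde region of 33.6 at 388 bp downstream. SoYb, a helicase and Tudor protein gene, had 66.5 at 994 bp upstream, where the summit was 102 bp from the TSS of Ndf.

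Genes of the siRNA and miRNA pathways, which use other Argonaute proteins, had IDR promoter peaks at 2 of 10 (20%). The peak at r2d2, the partner of Dicer-2, had 282, at rank 182, with 137 in replicate 1 and 155 in replicate 2, and its summit lay 137 bp upstream of r2d2 in the 5' UTR of the divergent gene Herp. The peak at gw, the miRNA silencing factor, had 169 at an internal TSS, 151 bp upstream. The nearest gw region in replicate 1 had 77.2 and that in replicate 2 had 39.4, 101 bp from the IDR summit and so just outside the matching distance of 100 bp. An IDR peak of 418 lay 1779 bp upstream of pasha, the partner of Drosha, between Mnat9 and CG1792. Among 16 Tudor domain genes, 2 had an IDR promoter peak (12.5%), papi and tapas. Each of these shares rests on 2 genes, beside the 12.5% of all protein-coding genes.

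**Figure D4:**
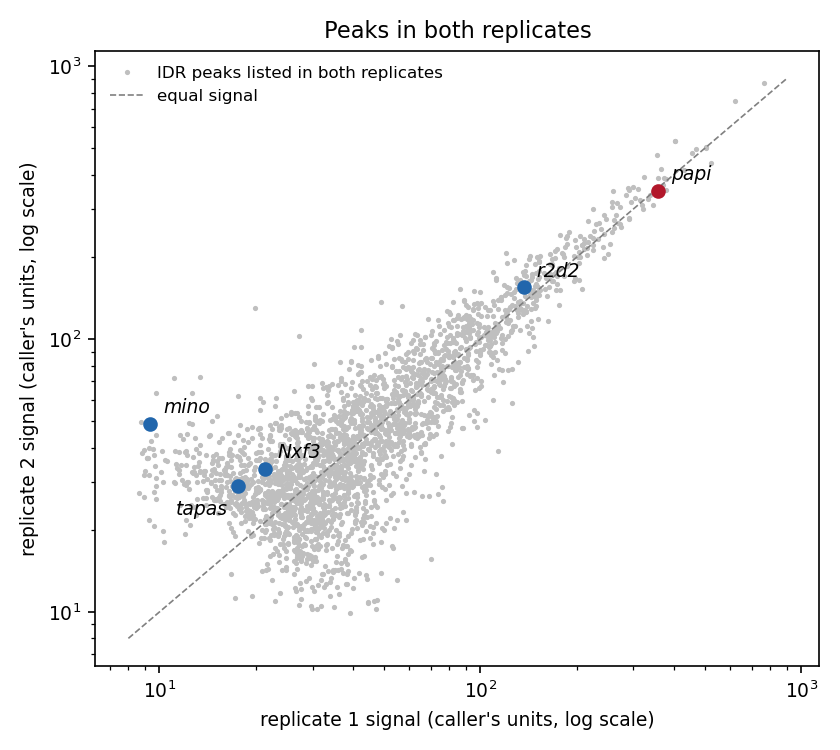
Replicate 1 signal (x axis) against replicate 2 signal (y axis), both on log scales, for IDR peaks listed in both replicates within 100 bp (grey), with papi in red and other small RNA pathway genes in blue, and a dashed line at equal signal. The papi peak lies at 358 and 349.9, near the line and among the strongest, r2d2 lies at 137 and 155, and mino lies at 9.37 and 48.9 because its stronger replicate 1 region is over 100 bp from the summit.

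Promoter peaks of other genes were ranked by how like that of papi they were in the signals of both replicates. Likeness was the Euclidean distance of log2 signal over the 2 replicates, among 1597 other protein-coding genes whose promoter peak was listed in both, so it rests on 2 values for each peak. The nearest was that of Hpf1, which works with poly(ADP-ribose) polymerase, with 351 in both replicates and a distance of 0.0296. Next came Chro, a chromodomain protein, and Ssl1, a TFIIH subunit, which share a peak with 344 in replicate 1 and 346 in replicate 2 (0.0594). CenG1A, a gene for a GTPase activating protein, and mRpS23, of the mitochondrial ribosome, share the following one, with 378 and 353 (0.0786). None of these 5 genes is in the small RNA lists, which says nothing about function. After papi, the strongest list gene with a promoter peak matched in both replicates was r2d2, with only 137 and 155.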

How the data were processed

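ChIP-seq peak lists in narrowPeak format were used for 1 group of 2 biological replicates: 30000 regions for each replicate and for the pooled replicates, and 2868 IDR peaks, all on dm6. Signal was deposited by the authors for each region, who derived it from alignments of the immunoprecipitation and of a control, per the labels' file descriptions. The deposited −log10 q-values were turned into false discovery rates. The sources used here name no peak caller, aligner or read filter, and depth is unknown. The dm3 lists were not used, since coordinates were not converted.

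Regions were assigned to genes by summit, with Ensembl release 115 (18277 genes, transposable elements left out) and the Release 6 reference sequence, within whose arm lengths every dm6 region fell. Promoter peaks have their summit at most 500 bp from any TSS. Spans are the gene and 2 kb upstream. Regions matched across lists when summits lay within 100 bp. Signals and summits were used to rank and describe regions. The genes and lists were chosen with earlier results of these data known, so no test was run. Named were the 10 genes, genes with a TSS within 500 bp of a pooled or IDR summit in their spans, list genes with an IDR promoter peak and the 5 genes with the peak most like that of papi. Genes named outside this rule (wde, SoYb, pasha, the neighbours of their peaks, RpL9, CG12253, solo, dgt2, CG15708 and, in the closing section, armi, Panx, cuff and their neighbours) were chosen after their values were seen. Alternatives were windows of 200 and 1000 bp, 1 TSS per gene, the 1434 strongest IDR peaks, a false discovery rate of at most 5%, all pooled regions, other spans and each replicate alone. Counting code was tested on planted summits. Python 3.11.15 with numpy 2.4.6 and matplotlib 3.10.9 was used.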

Additional observations from a re-analysis of the deposited data

How the results depend on the processing

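The papi peak is a promoter peak only through the second TSS of the gene: 0 of the 10 genes had an IDR promoter peak with windows of 200 bp or with 1 TSS per gene, since the summit lay 275 bp from the second TSS and 1066 bp from the 5' end. With each replicate left out in turn, the count was 1 to 2, where krimp was added by replicate 2 alone, and all pooled regions gave 4. The count of genes with an IDR summit over the gene or 2 kb upstream became 2 with 5 kb upstream, which takes in the RpL9 peak for aub, 1 to 2 with a replicate left out, and 5 with all pooled regions. For the list of 42 genes, the count of 4 became 1 (papi) among the 1434 strongest peaks, 5 to 8 with a replicate left out and 12 with all pooled regions. The papi signal was 349.9 to 358 in single replicates, against 705 in the pooled list, and its summit lay at -292 to -273 bp from the TSS. The replicate signals of papi sum to 708, near the pooled value, so single and pooled signals are not on the same scale. The other 18 of the planned recomputed values, and the added count over regions strong in both replicates (1 of 10 and 3 of 42), stayed within 1.5 times the main count or within the spread between replicates. A like count did not mean the same genes. From the list of 42, regions strong in both replicates gave papi, armi and wde, without mino, Nxf3 and tapas. Windows of 200 bp and 1 TSS per gene each gave mino, Nxf3 and tapas, without papi. No paired analysis was possible because there is 1 group. Depth is unknown, so absence from a list is no measure of absence of binding.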

Other observations

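The gene of another piRNA pathway factor had a region in both replicates that the pooled and IDR lists lack. At armi, which encodes the helicase Armitage that acts with Zucchini in the production of piRNAs, replicate 1 listed chr3L:3460616-3461031 with a signal of 43.7 at rank 1286, and replicate 2 listed chr3L:3460622-3461041 with 36.4 at rank 1706. Their summits lay 493 and 485 bp upstream of the first armi TSS, and 153 and 145 bp downstream of a TSS of the divergent gene eIF5B, a translation initiation factor. The TSS of CG46463 lay 491 and 483 bp from them. The deposited false discovery rates were 0.00739 and 0.0472. The nearest pooled summit was 1348 bp away from that of replicate 1. Of the 1744 regions among the strongest 2868 of replicate 1 with a match among those of replicate 2, 83 (4.76%) had no pooled summit within 300 bp, and their replicate 1 signals ran from 26.2 to 343 with a median of 55.3. These touched the promoters of 111 protein-coding genes. The cause was not tested.

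The promoters of Panx and cuff each had a region among the strongest 2868 of 1 replicate, with no pooled summit within 300 bp. Panx, whose product joins Piwi to the silencing machinery, had 29.7 in replicate 1 at 75 bp downstream of the TSS, 120 bp from the TSS of CG9485, and no region in replicate 2 there. At cuff, a gene needed for the transcription of piRNA clusters, replicate 2 had 29.7 at 341 bp upstream of the TSS, where the TSS of CG13185 was nearer, at 141 bp. Replicate 1 had a weaker region of 12.5 at 374 bp upstream of cuff.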
